A study of Oikopleura dioica with 14 samples.

Results

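The genes described here are the 94 listed identifiers that stand on either side of a run of identifiers. Most genes of the run had few or no counts in Pax37b mutants of the tunicate Oikopleura dioica. Identifiers have the form GSOIDG00006010001, and genes are called by the number they carry, here 6010. The run spans numbers 6011 to 6056 and holds 43 listed genes. The lower flank is the 50 numbers before it, 5961 to 6010, of which 48 are listed. The upper flank is the 50 numbers after it, 6057 to 6106, of which 46 are listed. Together they make up 94 of the 17212 genes in the tables. The run, and with it both edges, was chosen on the mutant and wild-type counts of these same libraries. Differences between genotypes in the flanks are therefore a description, with no p-value for any gene, and nothing is read from the counts of calls given for them. Changes between stages within a genotype were tested, on the same counts, and were not what the run was chosen on.

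Oikopleura dioica is a planktonic tunicate that secretes and lives in a filter house made by a specialised epithelium, and the Fol territory named in the study's title is a part of that epithelium. Pax3/7 proteins are paired-box transcription factors that in vertebrates act in the neural plate border, the neural crest and muscle precursors. The genome of Oikopleura dioica is compact, and many of its genes are transcribed together in operons. None of the 17212 identifiers matched the 17178 genes of the reference table, so the flank genes carry no name or role here, and whether neighbouring numbers are neighbours on a chromosome was not analysed here.

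The animals were the offspring of heterozygous Pax37b+/- parents and were collected at 4, 6 and 8 hours post-fertilization (hpf). Each animal was genotyped from a part of its own lysate, and animals of one genotype were pooled as whole animals. Mutant pools were Pax37b-/- and control pools were wild type, and there were 2 mutant libraries at 4 hpf and 3 at each later stage, beside 2 wild-type libraries at every stage. The labels do not say which cross or how many animals each pool came from, so a p-value measures the spread between these pools. In pools of whole animals, fewer cells of a type and less RNA per cell cannot be told apart.

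Library totals were 2803712 to 3941906 estimated counts for pools of 4 hpf, against 13038439 to 15465563 for those of 6 hpf and 10350791 to 15682947 for those of 8 hpf, so stage and depth go together. Mutant replicate 3 at 8 hpf stood apart, with 781 genes at 100 counts or more against 1799 and 2390 in the other mutant pools of that stage and 4465 and 2729 in wild type. All 3 of these mutant pools nevertheless had at least 1 count for 90.8% to 93.6% of the listed genes.

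Many flank genes were abundant in 1 pool of a group and scarce in another. In the lower flank 12 of 48 genes never reached 100 counts in any library, and in the upper flank 14 of 46 did not, which is 25.0% and 30.4% against 34.1% of the 17075 genes outside the run and its flanks. Only 1 gene in each flank, 5986 and 6084, was at 100 counts or more in all 14 libraries. At 8 hpf, of the lower-flank genes at 100 counts in any mutant pool, 1 of 13 was at that level in all 3, and in the upper flank 1 of 9 was, against 6.11% of genes outside the run and its flanks. In the wild-type pools of the same stage 8 of 24 and 6 of 15 were shared, against 27.6%. A difference between group means in the flanks can therefore rest on a single pool, and counts are given by library where a result turns on them.

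Some genes near the lower edge were also below wild type in mutants, but the loss did not run on unbroken from the edge. Genes 6006 to 6009, near the end of the lower flank, had few or no counts in the mutant pools at 6 and 8 hpf, apart from 6009 in 1 pool. The genes between 6006 and 6009 were scarce in most wild-type pools too. Gene 6010, next to the run, was below wild type in all mutant pools at 8 hpf but not at 4 or 6 hpf. At the upper edge no gene was depleted in mutants at more than 1 stage.

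For the edge itself, the first gene inside the run, 6011, had 0 and 1 counts in the mutant pools and 186 and 55 in wild type at 4 hpf. Its counts were 0, 0 and 1 against 4425 and 192 at 6 hpf, then 0, 0 and 1 against 2 and 839 at 8 hpf. The last gene inside the run, 6056, was near 0 in both genotypes, with a highest count of 4, and its neighbour 6055 had at most 1 count in any mutant pool against up to 4844 in wild type. The first gene outside, 6010, had 158 and 9 counts in the mutants against 158 and 49 in wild type at 4 hpf. Its mutant counts were 2, 90 and 20 against 17 and 4 in wild type at 6 hpf. They were 20, 25 and 22 against 2115 and 156 at 8 hpf. The groups of 6010 overlapped at the first stages and separated only at 8 hpf, where the wild-type mean was 36.5 times the mutant mean.

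Gene 6009 was the most abundant of genes 6001 to 6010 in wild type at 4 hpf. It had 685 and 940 counts in the mutant pools against 4712 and 5798 in wild type at 4 hpf, and 11, 8 and 18 against 14246 and 5918 at 6 hpf. The 8 hpf counts were 77, 5639 and 80 against 8162 and 10370. The mutants lay below wild type without overlap at the first stages, by 7.20 times at 4 hpf and 768 times at 6 hpf on mean CPM (the count divided by the library total, times 1e6). At 8 hpf mutant replicate 2, at 545 CPM, lay between the wild-type pools at 520.4 and 694 CPM, so the groups overlapped.

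Gene 6006 was not detected at 4 hpf, with 0 counts in all 4 libraries. Mutants had 1, 0 and 4 counts and wild type 19329 and 9531 at 6 hpf. The corresponding counts at 8 hpf were 28, 10 and 18 against 30030 and 28518. It was the most abundant lower-flank gene in both wild-type pools at 8 hpf, where it held 39.0% and 42.9% of the flank's summed level. The wild-type mean was 7789 times the mutant mean at 6 hpf and 1198 times at 8 hpf, and the groups did not overlap at either stage.

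Genes 6007 and 6008, between 6006 and 6009, were scarce in wild type too. Gene 6007 had no count in any of the 8 mutant pools, and in wild type it had 29 counts in 1 pool at 6 hpf and 56 in 1 pool at 8 hpf. Set against a floor of 3 counts over the mutant group, its wild-type mean was at least 14.9-fold higher at 6 hpf and at least 20.3-fold higher at 8 hpf, but at each of these stages 1 wild-type pool also had 0. Gene 6008 had 2 counts over all 8 mutant pools, and in wild type 2 and 26 at 6 hpf and 591 and 1 at 8 hpf. In both genes the wild-type level rested on 1 pool at 8 hpf.

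Gene 6005, the next outward, did not keep the pattern. It had no count in the 4 hpf mutants against 87 and 1 in wild type, and 0, 0 and 2 against 2345 and 1 at 6 hpf, where the groups overlapped. At 8 hpf the order was turned, with 8, 9 and 10 counts in the mutants against 3 and 1. Genes 6001 to 6004 stayed at 9 counts or fewer in every library, apart from 1237 counts of 6001 in mutant replicate 1 at 6 hpf.

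**Figure D1:**
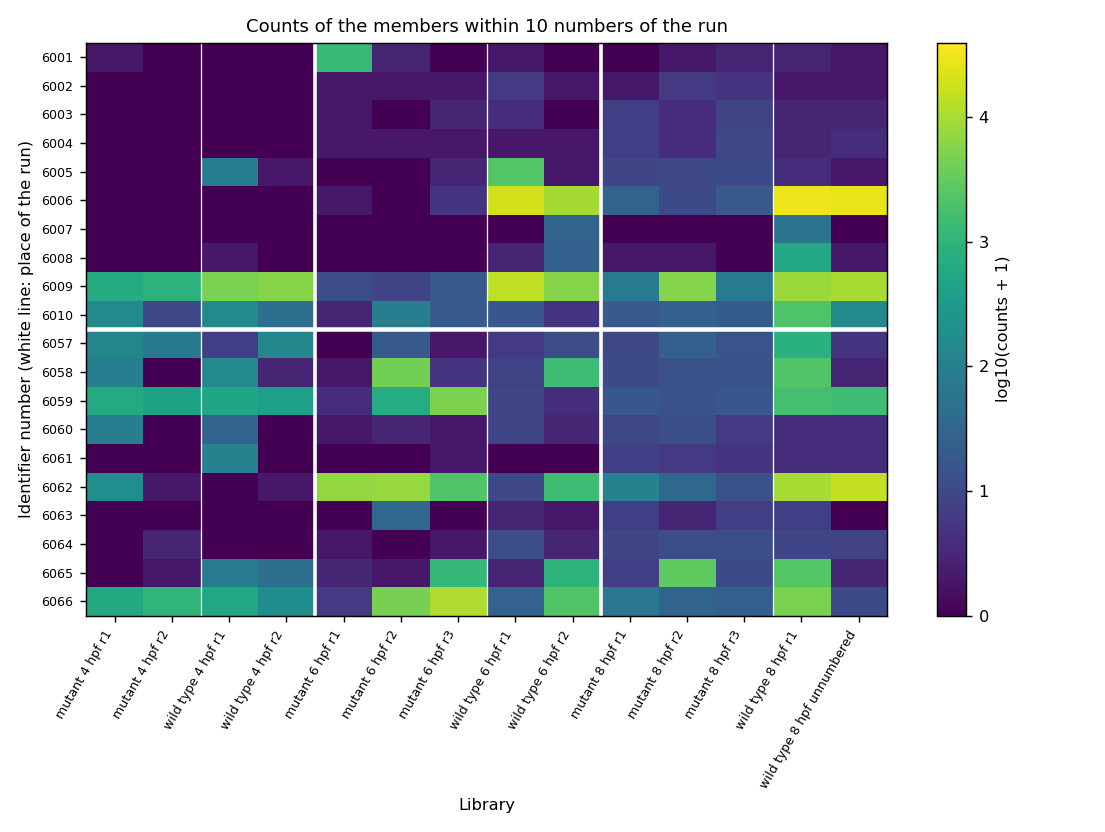
Colour gives log10(counts + 1) for the listed members within 10 numbers of the run (rows, white line at the place of the run) in the 14 libraries (columns, thin white lines between genotypes and thick ones between stages). Genes 6006 and 6009 are bright in wild type at 6 and 8 hpf and darker in mutants of those stages, except 6009 in mutant replicate 2 at 8 hpf. In the 4 hpf mutants 6009 has 685 and 940 counts. Gene 6062 is bright in all 3 mutants at 6 hpf and in wild type at 8 hpf, and has 1506 counts in wild-type replicate 2 at 6 hpf.

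Across the upper edge the nearest genes gave no common direction. Gene 6057 had 121 and 70 counts in the mutants against 6 and 136 in wild type at 4 hpf, 0, 19 and 1 against 5 and 11 at 6 hpf, and 9, 25 and 14 against 856 and 4 at 8 hpf. Gene 6058 had 1, 4226 and 4 counts in the mutants against 7 and 1494 at 6 hpf, and 10, 13 and 13 against 2290 and 2 at 8 hpf. The groups of both genes overlapped at every stage.

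Gene 6059 was as high in mutants as in wild type at 4 hpf, with 642 and 472 counts against 510 and 412. At 6 hpf it was high in 2 mutant pools and in neither wild-type pool, with 3, 691 and 4841 counts against 8 and 3. At 8 hpf it had 17, 13 and 17 counts against 1761 and 1480, and the wild-type mean was 77.3 times the mutant mean without overlap. Genes 6060 and 6061 were at 12 counts or fewer in every library after 4 hpf.

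Gene 6062, the sixth number from the run, lay above wild type in mutants at 6 hpf and below it at 8 hpf. It had 178 and 1 counts in the mutants against 0 and 1 in wild type at 4 hpf. By 6 hpf there were 7230, 7801 and 2227 counts in the mutants against 9 and 1506, a mutant mean 7.25 times that of wild type. By 8 hpf there were 109, 34 and 13 against 9881 and 15657, a wild-type mean 194 times that of the mutants. The genotypes did not overlap at 6 or 8 hpf.

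The reach of the loss was then measured with the same rule on every gene. A gene was counted as depleted at a stage when its wild-type mean was at least 1 CPM, its mutant mean was at least 10 times lower, and every mutant library lay below every wild-type library. Going outward from the run and passing over genes under 1 CPM in wild type, the unbroken stretch of depleted genes on the lower side was 0 genes at 4 hpf, 1 at 6 hpf (6009) and 1 at 8 hpf (6010). On the upper side it was 0 genes at all 3 stages. The lower stretch stopped at 6007 at 6 hpf, because 1 wild-type pool also had 0 counts, and at 6009 at 8 hpf, because of the 5639 counts in mutant replicate 2. These lengths depended on single pools. On the lower side the stretch was 1 gene at 4 hpf without mutant replicate 1. At 6 hpf it was 4 genes without wild-type replicate 1 and 0 without wild-type replicate 2. For 8 hpf it was 2 genes without mutant replicate 2 and 0 without wild-type replicate 1. On the upper side it was 1 gene at 6 hpf without mutant replicate 2. For 8 hpf it was 2 genes without wild-type replicate 1 and 4 without the unnumbered wild-type pool.

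Over the whole flanks, depleted genes were in some stages more and in others less frequent than in the tables as a whole. In the lower flank 3 of 26 genes at 1 CPM or more in wild type (11.5%) were depleted at 4 hpf, against 12.0% of all genes at that level. At 6 hpf 6 of 23 (26.1%) were, against 16.2%, and at 8 hpf 4 of 26 (15.4%), against 13.5%. In the upper flank the counts were 2 of 22 (9.09%), 1 of 16 (6.25%) and 4 of 16 (25.0%). With so few genes a share moves by several percentage points with 1 gene. Leaving out 1 library at a time gave 3 to 6, 6 to 9 and 4 to 10 depleted genes in the lower flank and 2 to 5, 1 to 4 and 4 to 8 in the upper flank. The highest counts came without mutant replicate 1 at 4 hpf (and, in the upper flank, also without wild-type replicate 2), without mutant replicate 3 at 6 hpf (and, in the lower flank, also without wild-type replicate 2) and without the unnumbered wild-type pool at 8 hpf. Within the run, by contrast, 16 of 23, 12 of 16 and 18 of 21 genes were depleted, which is the property the run was chosen for.

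The mirror rule, with mutants at least 10 times above wild type and no overlap, found 0, 1 and 1 lower-flank genes at 4, 6 and 8 hpf and 4, 1 and 2 upper-flank genes. Over all genes it found 7.70%, 6.14% and 15.2% of those at 1 CPM or more in mutants. The raised genes lay 6 to 47 numbers away from the run. The 4 upper-flank genes raised at 4 hpf had 1 count each in mutant replicate 2, against 0 or 1 in wild type. Their means thus rested on mutant replicate 1. The genes raised at 8 hpf had 1 high mutant pool each, with 581, 701 and 11338 counts. Their other mutant pools of that stage had at most 36 counts.

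Depletion at more than 1 stage was rare. In the lower flank 6006 and 5994 were depleted at 6 and 8 hpf, and no gene was depleted at all 3 stages. In the upper flank no gene was depleted at more than 1 stage. Of the 43 genes in the run 14 were depleted at 2 or more stages, and of the 17075 genes elsewhere 179 were. Gene 5994, which lies 17 numbers below the run, had 0, 2 and 5 counts in the mutants against 2362 and 5901 in wild type at 6 hpf, and 11, 9 and 15 against 78 and 409 at 8 hpf. Between 5994 and 6005 no gene was depleted at 6 or 8 hpf.

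**Figure D2:**
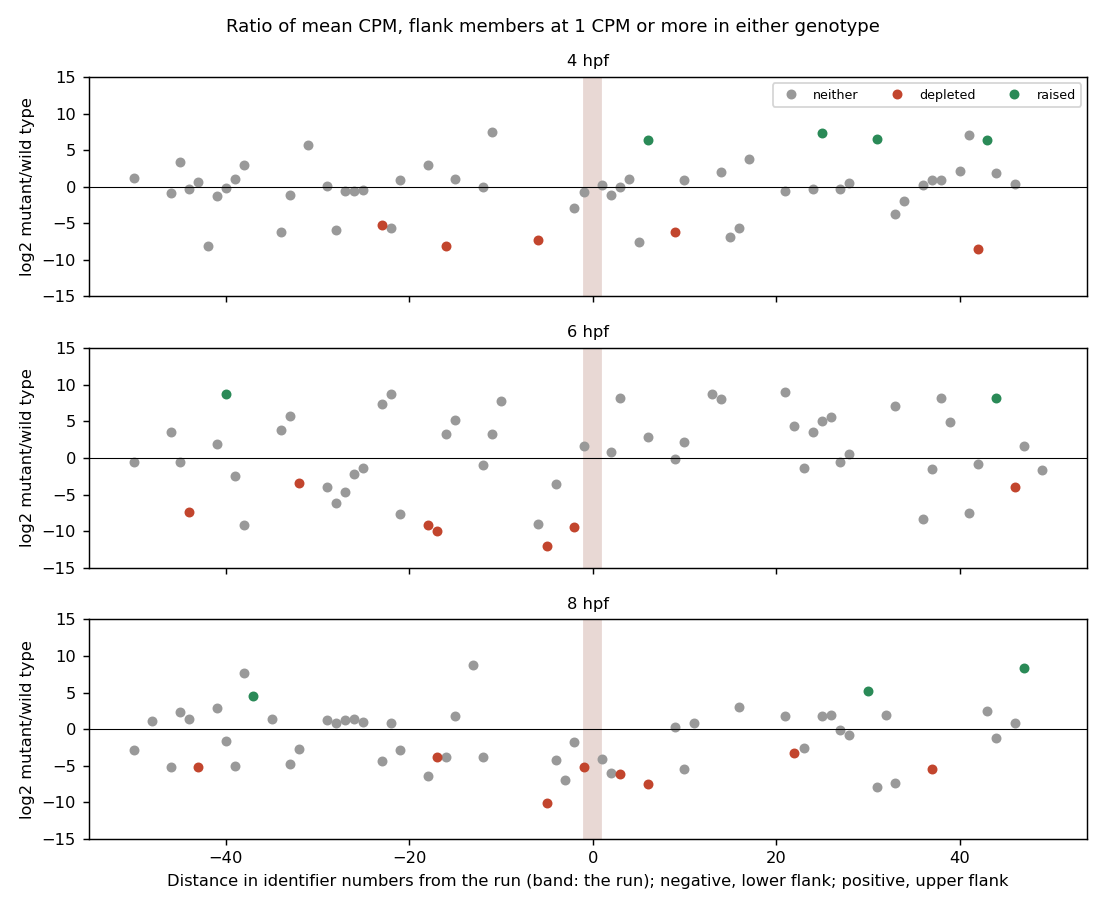
Each point is a flank gene at 1 CPM or more in either genotype, placed by its distance in identifier numbers from the run (x axis) and by the log2 ratio of mutant to wild-type mean CPM with 0.1 added (y axis), with 1 panel per stage. Depleted genes (red) are spread over both flanks, with 6 in the lower flank at 6 hpf and 4 in each flank at 8 hpf, and points lie above and below 0 on both sides of the run.

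Summed over blocks of 10 numbers, the block next to the run on the lower side was the one that stayed low in the mutants. Its sum was 214 and 319 CPM in the mutant pools against 1768 and 1864 CPM in wild type at 4 hpf. At 6 hpf it was 85.6, 6.60 and 3.68 CPM against 2359 and 1105 CPM. At 8 hpf it was 11.4, 550.3 and 13.9 CPM against 2612 and 2615 CPM. Every mutant pool lay below every wild-type pool of its stage, and the ratio of the means was 6.81, 54.2 and 13.6. Leaving out any 1 library kept the groups apart, with ratios between 5.69 and 8.48 for 4 hpf, between 34.6 and 337 for 6 hpf and between 9.26 and 207 for 8 hpf. The highest values came without mutant replicate 1 at 6 hpf and without mutant replicate 2 at 8 hpf.

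That block rested on 2 genes. Without 6009 the pools overlapped at 4 hpf, with a ratio of 2.39, and stayed apart at 6 and 8 hpf, with ratios of 33.9 and 343. Without 6006 they stayed apart at all 3 stages, with ratios of 6.81, 23.8 and 3.69. Without both, the other 8 genes overlapped at 4 and 6 hpf, with ratios of 2.39 and 2.59, and were apart at 8 hpf, with a ratio of 22.1. As background, of 961 blocks of 10 numbers elsewhere in the tables with at least 8 listed genes, 23.8%, 8.32% and 19.1% lay lower in all mutant pools at 4, 6 and 8 hpf, and 6 did so at all 3 stages. The block next to the run adjoins an edge that was set on these counts, so its place among them is not a result.

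No other block of either flank was low in the mutants without overlap at all 3 stages. In the lower flank the block 21 to 30 numbers away was lower at 4 and 6 hpf, with wild-type to mutant ratios of 1.37 and 5.13, and overlapped at 8 hpf. The block 31 to 40 numbers away was higher in mutants at 4 hpf, by 1.94 times, and lower at 6 and 8 hpf, with wild-type to mutant ratios of 2.46 and 4.39. The block of the upper flank next to the run overlapped at 4 hpf, with 445 and 542 CPM against 516 and 244 CPM. At 6 hpf it was higher in the mutants, with 494, 1118 and 1489 CPM against 5.25 and 442 CPM. At 8 hpf it was lower, with 19.0, 309 and 10.7 CPM against 1403 and 1149 CPM. Without 6062, its most abundant gene, the upper block overlapped at every stage. Further out, the upper block 31 to 40 numbers away was higher in mutants at 4 hpf, by 1.68 times, and lower at 8 hpf. At 8 hpf it had 4.90, 40.6 and 7.76 CPM against 1058 and 1016 CPM. That ratio of 58.4 was the largest of the flank blocks at 8 hpf. The blocks 41 to 50 numbers away were lower by 1.71 times at 4 hpf (lower flank) and 4.05 times at 6 hpf (upper flank). Upper blocks 11 to 20 and 21 to 30 away were at no stage lower without overlap.

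**Figure D3:**
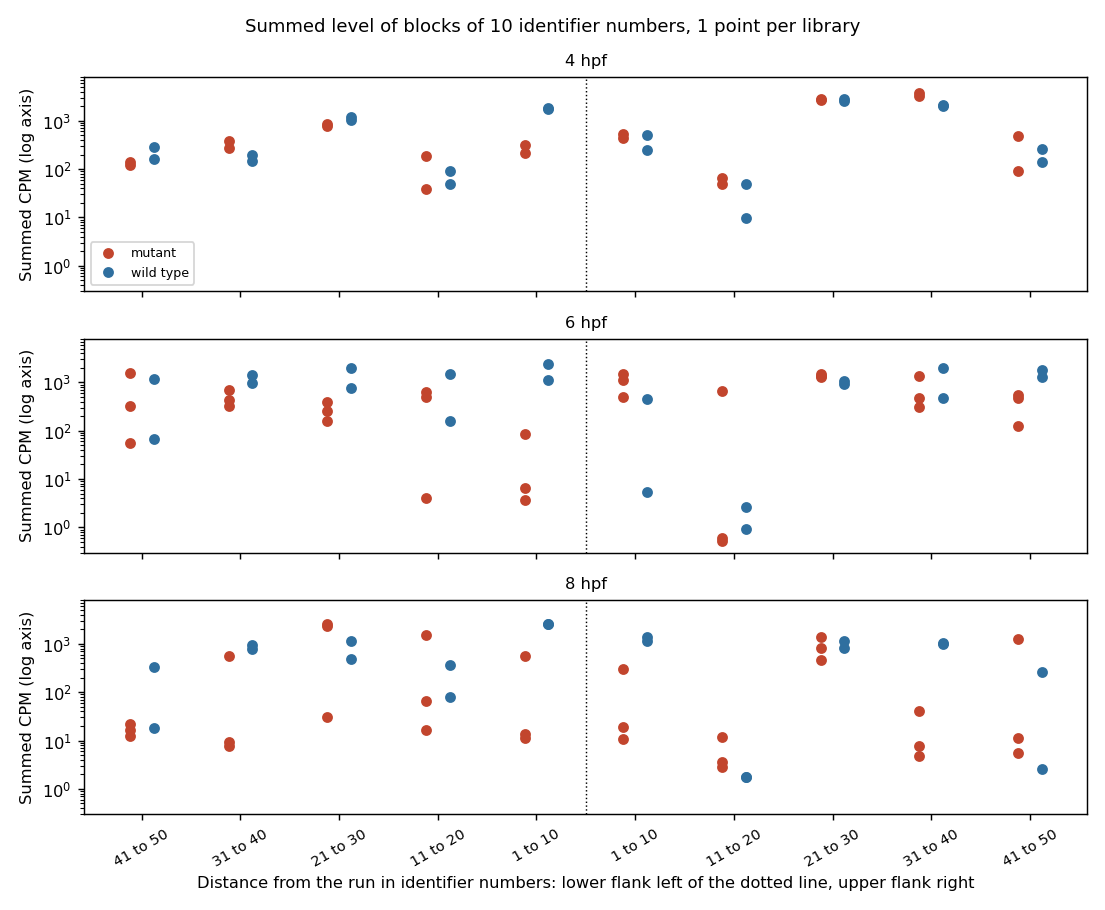
Points are libraries, with summed CPM of a block of 10 identifier numbers on a log axis and the blocks ordered along the x axis from the far lower flank to the far upper flank (dotted line at the run). The block next to the run on the lower side has all mutant points (red) under both wild-type points (blue) in all 3 panels, and the upper block next to the run has mutants above at 6 hpf and below at 8 hpf.

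Over whole flanks the difference was smaller. The lower flank summed to 1639 and 1677 CPM in mutants against 3157 and 3645 CPM at 4 hpf, a wild-type mean 2.05 times higher. At 6 hpf it summed to 3073, 1037 and 1259.8 CPM against 5951 and 5456 CPM, 3.19 times. At 8 hpf it summed to 2994, 4661 and 134 CPM against 4908 and 4455 CPM, and the groups overlapped. The lowest of these values, 134 CPM, was that of mutant replicate 3. The upper flank was higher in mutants at 4 hpf, at 6527 and 7558 CPM against 5327 and 5319 CPM. It overlapped at 6 hpf, at 3606, 2925 and 4681 CPM against 4913 and 3164 CPM. At 8 hpf it had 836, 3018 and 500.2 CPM against 3897 and 3009.6 CPM and overlapped again.

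Most flank genes left a trace in the 8 hpf mutant pools. The run was chosen for few or no counts there, so its values beside theirs follow from that choice. In the lower flank 43 of 48 genes, 89.6%, had a count in all 3 mutant pools, and in the upper flank 43 of 46, 93.5%, did. Outside the run and its flanks 85.8% of genes did, and in the run 6 of 43 did. A gene with no count in any of the 3 pools was found once in the lower flank, 6007, and not in the upper flank, against 19 genes of the run (44.2%) and 2.89% of genes elsewhere. At the lower edge the trace level was low for 2 neighbours, as 6007 had 0 and 6008 had 2 counts over these pools. Low traces were not particular to this edge, as 6071 and 6085 in the upper flank had 3 counts each. These genes lie 15 and 29 numbers from the run. The trace level was 56 for 6006 and 67 for 6010, where the median gene elsewhere had 26.0 counts over the same 3 pools. At the upper edge it was 48 for 6057, 36 for 6058 and 47 for 6059. Most genes had such traces in these pools, and where they came from was not tested.

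**Figure D4:**
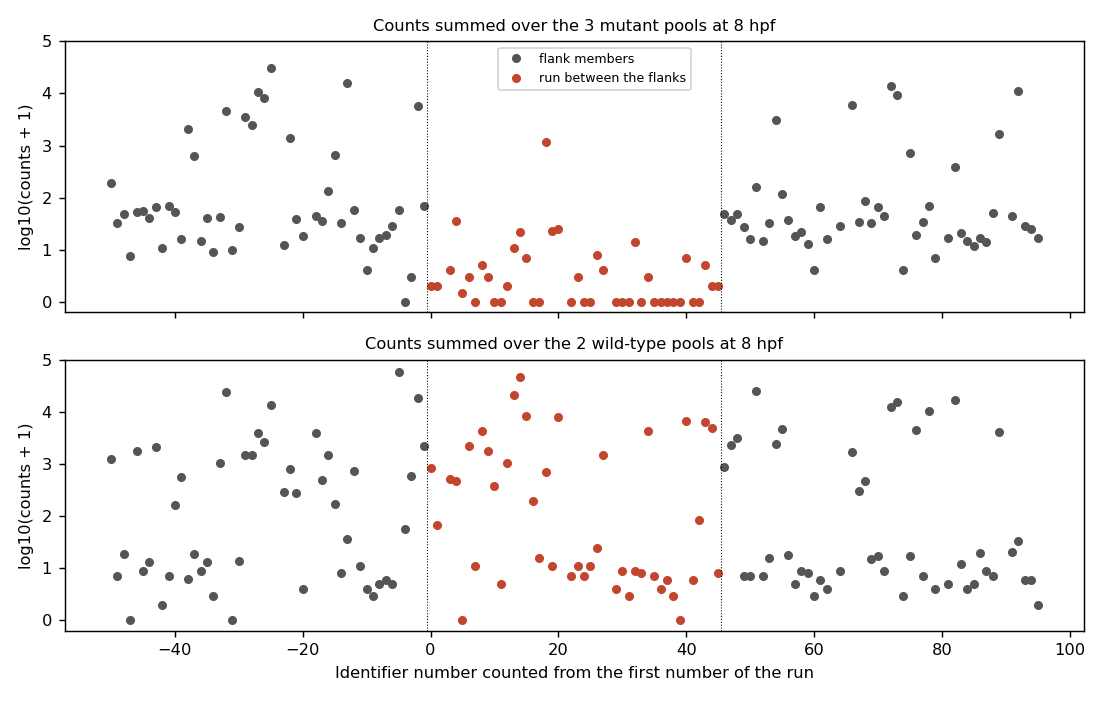
The y axis gives log10(counts + 1) summed over the 3 mutant pools (top) and the 2 wild-type pools (bottom) at 8 hpf, and the x axis the identifier number counted from the first number of the run. In the mutant panel 19 of 43 run genes (red) sit at 0, which the choice of the run fixed, against 1 of 94 flank genes (grey), while in the wild-type panel run and flank genes cover a similar range.

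The edgeR fits over all genes gave the following counts of flank genes for the genotype contrasts, which are listed as description because the run was chosen on them. At an adjusted p under 0.05, 0 flank genes were called at 4 hpf (0.0721% of all genes tested), 0 at 6 hpf (0% of all) and 0 at 8 hpf (0% of all). The unadjusted p was under 0.05 for 2 of 20 lower-flank and 2 of 19 upper-flank genes tested at 4 hpf, against 6.06% of all genes. It was so for 3 of 22 and 0 of 19 at 6 hpf, against 5.10%, and for 9 of 32 (28.1%) and 6 of 27 (22.2%) at 8 hpf, against 2611 of all 8704. Without the unnumbered wild-type pool of 8 hpf, which leaves 1 such pool assumed to vary like the mutants, edgeR called 10 of 38 lower-flank genes, 8 lower and 2 higher in mutants, and 6 of 33 upper-flank genes, 5 lower and 1 higher, against 21.5% of all genes. When the 3 stages were fitted together, 3 of 38 lower-flank genes (6006, 6007 and 6008, all lower in mutants) and 0 of 36 upper-flank genes were called, against 0.179% of all 12850 genes tested. Of the 23 genes called in that fit, 10 were in the run, 3 in the lower flank and 0 in the upper flank. Of these calls, 6006 kept its call in 4 of 14 fits that left out 1 library, 6007 in 2 and 6008 in 0. None of the 3 was called once the libraries of 6 hpf, or those of 8 hpf, were left out. Without the libraries of 4 hpf all 3 were still called, against 0.201% of all genes.

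DESeq2 gave many more calls, in the flanks as elsewhere. It called 1 of 37 lower-flank and 2 of 40 upper-flank genes at 4 hpf against 3.51% of all genes, 10 of 48 and 7 of 46 at 6 hpf against 13.2%, and 13 of 48 and 9 of 46 at 8 hpf against 22.6%. Over all stages it called 6 of 48 and 1 of 46 against 7.91%. limma-voom called 0 flank genes at 4 hpf, 8 hpf and over all stages, against 0.0577%, 0% and 0.0467% of all genes. At 6 hpf it called 3 of 22 lower-flank genes, 5994, 6006 and 6009, and 0 of 19 upper-flank genes, against 2.29%.

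Between 4 and 6 hpf in wild type edgeR called 1 flank gene, and the other tools called more. Gene 6006 rose between 4 and 6 hpf, from 0 counts in both pools to 19329 and 9531 (edgeR adjusted p = 0.0196). Against a floor of 3 counts over the 4 hpf pools the 6 hpf mean was at least 1928-fold higher. It was 1 of 33 lower-flank genes tested, 0 of 22 upper-flank genes were called, and over all genes 0.0214% were. The unadjusted p was under 0.05 for 5 of 33 (15.2%) and 5 of 22 (22.7%) flank genes, against 18.7% of all. The call held in 8 of 12 alternatives, and of the 6 fits without 1 library it held in the 2 that left out a wild-type pool of 8 hpf.

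Gene 5979 was likewise undetected at 4 hpf and abundant in wild type at 6 hpf, and whether it passed edgeR's test depended on the settings. It had 0 counts in all 4 libraries at 4 hpf, 18464 and 13474 in wild type at 6 hpf and 10324 and 14275 at 8 hpf. The change from 4 to 6 hpf was at least 2149.7-fold on means, with an edgeR adjusted p of 0.0765. That p was 0.0125 with RLE factors and 0.0214 without a low-count filter. It was 0.000772 without wild-type replicate 1 of 8 hpf and 0.00402 without the unnumbered pool of that stage. From 6 to 8 hpf its wild-type mean went from 1086 to 807 CPM, whereas that of 6006 went from 974 to 1912 CPM. In mutants the gene was patchy, with 1, 4300 and 493 counts at 6 hpf and 4658, 11 and 33 at 8 hpf. Mutants lay below wild type without overlap at both stages, with ratios of 10.3 and 6.60. Gene 5994 also had no count in wild type at 4 hpf, and its 6 hpf mean of 288 CPM was at least 569.5-fold higher (edgeR adjusted p = 0.267).

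From 4 to 6 hpf in wild type DESeq2 called 10 of 48 lower-flank genes, all higher at 6 hpf, and 12 of 46 upper-flank genes, 9 higher and 3 lower, against 16.4% of all genes. limma-voom called 3 of 33, namely 5979, 5994 and 6006, and 0 of 22, against 1.04%. In both wild-type pools at 6 hpf above both at 4 hpf were 10 of 48 lower-flank genes (20.8%) and 18 of 46 upper-flank genes (39.1%), against 25.9% elsewhere. Depth differed between these stages, and its part in these counts was not tested.

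From 6 to 8 hpf in wild type edgeR called 0 of 33 and 0 of 22 flank genes, against 0.0214% of all. The unadjusted p was under 0.05 for 4 (12.1%) and 2 (9.09%) of them, against 16.2% of all. The smallest belonged to 6102 in the upper flank, with 23747 and 12798 counts at 6 hpf and 12 and 8 at 8 hpf (edgeR adjusted p = 0.272). DESeq2 called 12 of 48 and 11 of 46 against 24.9% of all genes, and limma-voom 0 and 0 against 2.42%. Gene 6006 had a mean of 974 ± 417 CPM at 6 hpf and 1912 ± 3.89 CPM at 8 hpf (SD, n = 2 each).

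In the mutants edgeR called 0 of 32 lower-flank and 0 of 33 upper-flank genes from 4 to 6 hpf, and 0 and 0 from 6 to 8 hpf, against 0% of all 10873 genes in each. Unadjusted p-values under 0.05 numbered 8 (25.0%) and 9 (27.3%) in the first interval, against 27.5% of all genes, and 15 and 14 in the second, against 36.2%. DESeq2 called 6 of 47 and 6 of 46 in the first, against 13.3%, and 5 of 47 and 6 of 46 in the second, against 9.26%. limma-voom called 0 flank genes in both, against 0.947% and 0.304% of all genes. Without mutant replicate 2 at 4 hpf, which leaves 1 pool at that stage assumed to vary like the others, edgeR called 3 of 40 lower-flank and 4 of 40 upper-flank genes from 4 to 6 hpf, all lower at 6 hpf, against 6.25% of all genes.

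Gene 6093 had the highest mean CPM of all flank genes. In mutants it had 11616 and 10793 counts at 4 hpf, then 6173, 4688 and 6451, and by 8 hpf 14, 354 and 15. In wild type it had 4982 and 5372, then 30721 and 4054, then 6181 and 10575. On the CPM scale the mutants were above wild type at 4 hpf by 1.88 times, overlapped at 6 hpf, and were below at 8 hpf, where the wild-type mean was 45.1 times theirs. At 4 and 8 hpf the groups did not overlap.

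Some abundant genes were present at every stage. Gene 6084 ranged over 839 to 1681 CPM in the libraries of 4 hpf, over 206 to 502 CPM in those of 6 hpf and over 112 to 738 CPM in those of 8 hpf. Mutants lay above wild type at 4 hpf by 1.49 times, and the genotypes overlapped at 6 and 8 hpf. Gene 6083, its neighbour, ranged over 812 to 1142 CPM in the first, 216 to 736 CPM in the second and 391 to 685 CPM in the third set, apart from 3.01 CPM in mutant replicate 3. Wild type was above the mutants without overlap at 4 and 6 hpf, by 1.23 and 1.44 times. Gene 5986, the lower-flank gene at 100 counts in every library, ranged over 436 to 686 CPM, then 60.7 to 615 CPM, then 23.9 to 1414 CPM.

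**Figure D5:**
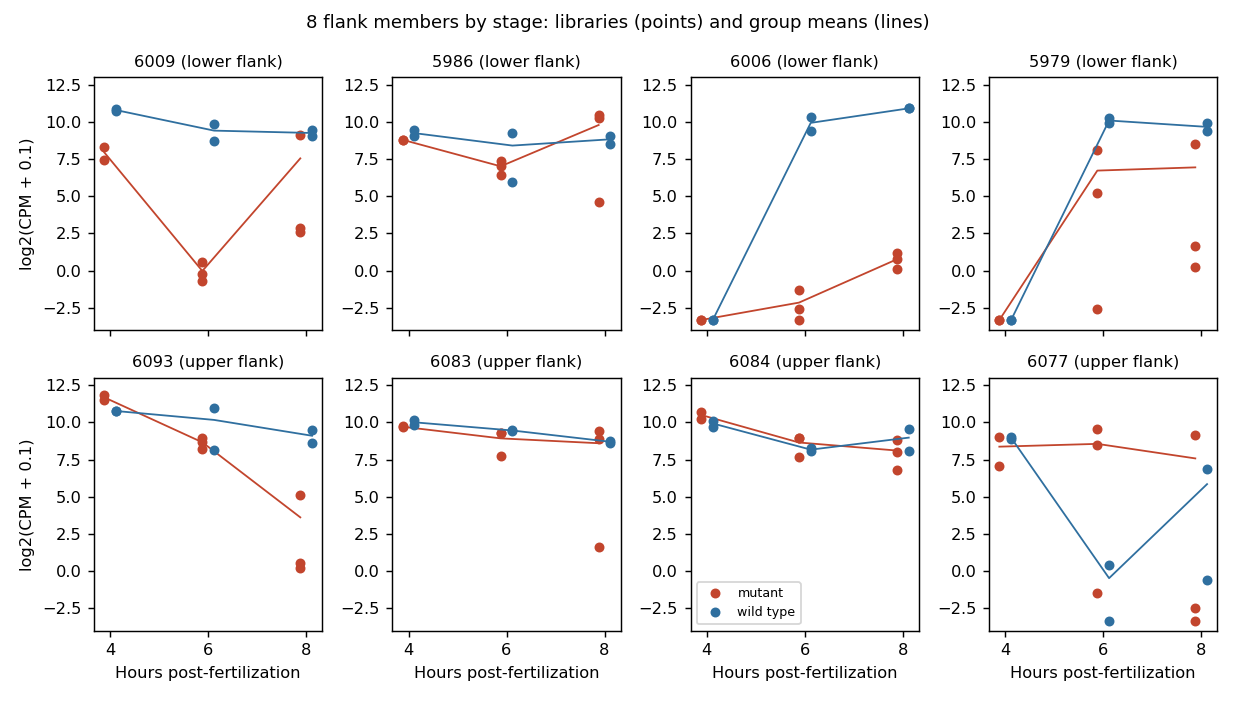
The 4 genes of highest mean CPM in each flank are plotted as log2(CPM + 0.1) against hours post-fertilization, with 1 point per library and lines through group means (red mutant, blue wild type). 6006 goes from 0 at 4 hpf to 679 and 1269 CPM at 6 hpf in wild type, while mutants stay at or under 2.18 CPM, and 6084 stays between 112 and 1681 CPM in both genotypes.

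Some neighbours in the lower flank were high together in some libraries and apart in others. Genes 5982 to 5986 all had at least 2695 counts in wild-type replicate 1 at 6 hpf and at least 1462 in wild-type replicate 1 at 8 hpf. In mutant replicate 2 at 8 hpf they had at least 2468. In mutant replicate 3 of that stage they had 6, 16, 5, 3 and 262 counts. In the other pools of 6 hpf they took no common pattern. Mutant replicate 1 had 246, 0, 0, 0 and 1269 counts, and replicate 2 had 87, 2, 1, 298 and 2031. Mutant replicate 3 had 163, 147, 212, 489 and 2186, and wild-type replicate 2 had 0, 4, 1, 1 and 853. At 4 hpf and in the remaining pools of 8 hpf the first pair parted from the other genes. At 4 hpf 5982 and 5983 had 0 to 73 counts, and 5984 to 5986 had 373 to 2152. In mutant replicate 1 at 8 hpf the pair had 155 and 16 counts against 6693, 5518 and 18172, and in the unnumbered wild-type pool 0 and 2 against 973, 617 and 5518. Over all pairs of consecutive lower-flank numbers, when the first gene was at 100 counts in a library the second was too in 44.6% of cases. This share was 27.9% in the upper flank and 28.1% elsewhere. Regardless of the first gene, the second was at that level in 22.2%, 20.7% and 18.7% of cases. The lower-flank share includes the pairs among 5982 to 5986, picked after their values were seen. Of these, 5984 and 5985 were at 100 counts in 10 and 11 libraries and 5986 in all 14. The share was not computed without them, so it is not read as a trait of the whole flank.

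Whether the genotype difference changed with stage was asked in a single fit of all 14 libraries. It rests on the genotype counts that the run was chosen on, so its calls too are a description. With edgeR 0 of 38 lower-flank and 0 of 36 upper-flank genes were called, as were 0% of all 12850 genes. The unadjusted p was under 0.05 for 9 (23.7%) and 10 (27.8%) of them, against 22.8% of all. DESeq2 called 6 of 48 and 5 of 46, against 6.41% of all genes, and limma-voom 2 of 38 (5994 and 6006) and 0 of 36, against 0.389%.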

How the data were processed

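Polyadenylated RNA of pooled whole animals was made into low-input sequencing libraries, as the labels' protocols state. For each of the 3 stages the authors deposited a table of estimated counts per gene, 1 column per library, and kallisto 0.46.0 and DESeq2 are named in the submitters' processing notes. For the transcript index, annotation, strandedness and filters the sources used here give nothing. Where genes are near-identical copies their counts are uncertain, since kallisto shares ambiguous reads between them. The number of 1 wild-type column at 8 hpf is in no sample title, and the column was used as an unnumbered replicate of its group.

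Counts were rounded to whole numbers for testing (4.22% to 10.8% per library lay more than 0.01 from one). CPM were computed on library totals. Each stage, the comparison over all stages (stage as a factor), the changes between stages within a genotype and the interaction were fitted over all genes with edgeR 4.0.16 in R 4.3.3 (filterByExpr, TMM, two-sided quasi-likelihood F test, Benjamini-Hochberg adjustment over all genes tested, threshold 0.05). DESeq2 1.42.0, which was given genes without that filter, and limma-voom (limma 3.58.1) were alternatives, besides RLE factors, other low-count filters, a replicate block, leaving out each library, other forms of the depletion rule, and thinning every library to 2803712 counts. The edgeR fits other than the interaction, and the depletion rule, were tested on simulated data. Python 3.11.15, pandas 2.3.3, numpy 2.4.6 and matplotlib 3.10.9 were used.

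The run and both flanks, and every list and rule here, were chosen with earlier results of these data known. Genes were named if they were among the 5 listed rows nearest the run on a side, depleted or raised at 2 or more stages, called in any of the 9 tests, among the 4 highest in mean CPM of a flank, or among the 2 smallest p-values of a flank in a change between stages. Others named (6001 to 6004, 5982 to 5985, 6055, 6056, 6011, 6071 and 6085) were chosen after their values were seen. Floors cover counting error only, because amplified reads without molecular identifiers are not independent molecules.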

Additional observations from a re-analysis of the deposited data

Results flagged for a closer look

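Among the 42 values looked at (30 named genes, both flank sums and the 10 block sums), 10 had every mutant pool on one side of every wild-type pool at one stage and on the other side at a later stage. The change of the log2 ratio of mutant to wild-type mean CPM, with 0.1 CPM added, is given for each, and none of these differences was tested by itself.

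Turning from above to below wild type, 6062 changed by -14.03 from 4 to 8 hpf and by -10.42 from 6 to 8 hpf, and 6093 changed by -6.40 from 4 to 8 hpf. The 4 hpf side of 6062 rested on the 178 counts of mutant replicate 1. Mutant replicate 2 and wild-type replicate 2 had 1 count each there, at 0.336 and 0.319 CPM. Among block sums, the upper block next to the run changed by -5.71 from 6 to 8 hpf, the upper block 31 to 40 numbers away, which holds 6093, by -6.61 from 4 to 8 hpf, and the lower block 31 to 40 numbers away by -2.25 from 4 to 6 hpf and -3.09 from 4 to 8 hpf. Turning from below to above, 6005 changed by 9.28 from 4 to 8 hpf, and 5967, 6102, 6060 and 6064 by 8.83, 4.85, 2.74 and 2.73 from 6 to 8 hpf. These last 5 genes had means under 2 CPM in the mutants at 8 hpf.

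Over all listed genes such a turn from 6 to 8 hpf occurred in 1 of 48 lower-flank genes (2.08%) and 4 of 46 upper-flank genes (8.70%), against 7.33% of genes outside the run and flanks. Groups of 2 or 3 pools were too small to look for single outlying pools.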

How the results depend on the processing

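Of the 431 alternative values of counts, reaches and summed levels, 336 stayed within the tolerance of 1.5 times for counts and of 1 replicate SD for levels, and 95 moved. Calls per comparison are given as lower and upper flank, edgeR's unless another tool is named. DESeq2 called 1 and 2 at 4 hpf, 10 and 7 at 6 hpf, 13 and 9 at 8 hpf, 6 and 1 over all stages, 10 and 12 in wild type from 4 to 6 hpf, 12 and 11 from 6 to 8 hpf, 6 and 6 in mutants from 4 to 6 hpf, 5 and 6 from 6 to 8 hpf, and 6 and 5 for the interaction. limma-voom called 3 lower-flank genes at 6 hpf, 0 over all stages, 3 in wild type from 4 to 6 hpf and 2 for the interaction. RLE factors gave 1 lower-flank call over all stages and 2 in wild type from 4 to 6 hpf. Without a low-count filter there was 1 at 4 hpf and 2 in wild type from 4 to 6 hpf, and with a mean of at least 5 CPM there was 1 at 4 hpf and 0 over all stages. Leaving out a stage was an alternative chosen after seeing the data. Over all stages it gave 3 lower-flank calls without 4 hpf, 0 without 6 hpf and 0 without 8 hpf. Why the calls moved was not tested.

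A replicate block gave 1 lower-flank call at 4 hpf (0 without it) and 0 over all stages. Deviations of same-numbered pools correlated at -0.0321 at 4 hpf, -0.0244 and -0.00816 at 6 hpf and 0.0311 at 8 hpf over 9950 genes. With so few pools a group these values cannot settle whether same-numbered pools shared a cross, which the labels do not say. With 1 wild-type pool of 8 hpf used as unnumbered, 1 number was shared at that stage, so no block was fitted there.

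Leaving out 1 library at a time gave 0 to 1 lower-flank calls at 4 hpf, 0 to 10 lower and 0 to 6 upper at 8 hpf (the highest without the unnumbered wild-type pool, which leaves 1 pool assumed to vary like the others), 0 to 2 lower over all stages, 0 to 2 lower in wild type from 4 to 6 hpf, and 0 to 3 lower and 0 to 4 upper in mutants from 4 to 6 hpf (the highest without mutant replicate 2 at 4 hpf). Depleted genes ranged over 3 to 6, 6 to 9 and 4 to 10 in the lower flank and 2 to 5, 1 to 4 and 4 to 8 in the upper flank at 4, 6 and 8 hpf. The reach ranged over 0 to 1, 0 to 4 and 0 to 2 below and 0 to 0, 0 to 1 and 0 to 4 above. The log2 ratio of summed level, mutant over wild type, ranged over -1.14 to -0.93, -2.31 to -1.40 and -1.58 to -0.29 below and 0.29 to 0.51, -0.39 to 0.24 and -2.37 to -0.84 above.

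On the mean ratio alone, with overlap allowed, depleted genes were 7, 13 and 13 in the lower flank and 6, 3 and 9 in the upper flank, and the reach was 4 below at 6 hpf and 4 above at 8 hpf. With 100 times in place of 10, depleted genes were 0 in the upper flank at 6 hpf, 1 in each flank at 8 hpf, and the reach below at 8 hpf was 0. The reach below at 6 hpf was 2 on TMM-scaled CPM, with a wild-type floor of 5 CPM, and on thinned counts. TMM-scaled CPM gave 2 depleted upper-flank genes at 6 hpf, and log2 ratios at 4 hpf of -0.79 below and 0.66 above. Without the most abundant gene of each flank these were -0.21 and 0.07. With medians over genes the upper-flank log2 ratio was 1.01, -0.71 and 1.27 at 4, 6 and 8 hpf, the last turned from -1.25.

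Among single-gene calls, 6006, 6007 and 6008 over all stages were kept in 8, 4 and 3 of 23 alternatives. With 2 or 3 pools a group, a depth of 2803712 counts at 4 hpf and abundant genes that pools of a group seldom share, these tables limit what can be said of a loss of counts in any single flank gene, named or not.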
